A study of Mus musculus with 45 samples.

Results

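A set of 10 genes that move phosphate across kidney tubule cells or set how much of it is kept were followed through the ribosome-bound RNA of 45 mouse kidneys. They are the phosphate transporters Slc34a1, Slc34a3, Slc20a1 and Slc20a2, the hormone receptors and co-receptor Pth1r, Fgfr1 and Kl, and the vitamin D genes Cyp27b1, Cyp24a1 and Vdr. The 10 were chosen by name from 55401 genes in the count tables, and all 10 passed the filter on low counts in both sexes, as did 15828 protein-coding genes in all. Each was read as counts and as TPM (a level scaled by transcript length) in every mouse.

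The kidney sets the level of phosphate in blood mainly in the proximal tubule, where sodium-phosphate cotransporters of the Slc34 family take phosphate back from the filtrate. Parathyroid hormone, acting on Pth1r, and FGF23, a hormone from bone that needs klotho (Kl) beside an FGF receptor such as Fgfr1, both withdraw these transporters from the brush border. The same cells make and break active vitamin D, with Cyp27b1 adding the activating hydroxyl group, Cyp24a1 starting its breakdown, and the receptor Vdr carrying its signal to genes.

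The libraries were made by translating ribosome affinity purification (TRAP), which pulls down ribosomes carrying an EGFP-tagged Rpl10a protein and sequences the RNA they hold. All mice were hemizygous for R26Rpl10a, Pax8rtTA and TetOCre, received doxycycline from postnatal day 28 to 42 and were harvested at 7 weeks (postnatal day 49), before cysts had formed. The Pax8 promoter drives recombination in kidney tubule cells, so that the tagged ribosomes come from those cells, and the mice were largely of the C57BL/6J background. Noncystic mice (8 males and 7 females) were Pkd1fl/+, Pkd1KO mice (7 males and 8 females) were Pkd1fl/fl, and Pkd1KO+ciliaKO mice (9 males and 6 females) were Pkd1fl/fl;Kif3afl/fl and lose cilia together with polycystin-1. No group was free of a floxed Pkd1 allele, and each mouse was counted as 1 replicate.

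The count tables held 80874556 to 132958186 fragments for a mouse, and 3 counts, taken as the floor, corresponded to at most 0.0371 CPM (counts scaled to a common library size), a floor that covers counting error only. Kif3a, the deleted cilia gene, lay between 4.83 and 7.54 normalized CPM in the 9 male Pkd1KO+ciliaKO mice and at 13.9 or more in all other males. Among the females, the library labelled noncystic replicate 5 held 6.72 CPM of Kif3a and the library labelled Pkd1KO+ciliaKO replicate 6 held 20.5 CPM, so both went against their labels. Pkd1 itself was counted over the whole gene, deleted part or not, and did not pass the test between any pair of genotypes. On a principal component of all genes, which held 40.4% of the variance, the females scored from -30.7 to -16.6 and 20 of the 24 males from 13.6 to 35.97. The other 4 males were not alike. Pkd1KO replicate 4 scored 9.97 and noncystic replicate 3 scored -2.69, both apart from all females, whereas Pkd1KO+ciliaKO replicates 6 and 8, at -18.1 and -18.2, fell among the females. These 6 libraries are named wherever a result rests on them. In the labels, male noncystic replicate 3 and male Pkd1KO+ciliaKO replicates 6 and 8 carry lower mouse numbers than all other mice. Male Pkd1KO replicate 4 does not share this. The labels do not state what the mouse numbers stand for, and their relation to the scores was not tested. Markers of the proximal tubule were high in every mouse, with the summed level of 8 markers between 4547 and 9963 CPM, against 25.6 to 105 CPM for 3 podocyte markers. None of the markers of any cell type was at 0 in all mice. Because the samples are bulk, fewer cells of a type and less RNA per cell cannot be told apart.

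Levels of the 10 genes spanned more than 2 orders of magnitude when compared per transcript length, on the TPM scale. Slc34a1, which encodes the main phosphate transporter of the proximal tubule brush border (NaPi-IIa), stood first, at a mean of 1456 TPM over the 24 males, where only 0.300% of 15991 genes were higher, and at 1053 TPM over the 21 females, where 0.557% of 15968 genes were higher. Pth1r followed with 621 TPM in males and 531 TPM in females, and Kl with 295 and 268 TPM. Vdr averaged 194 TPM in males and 197 TPM in females. The TPM tables of the sexes had been normalized separately, so these values are set side by side and not compared.

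A gap then separated these 4 genes from the other 6. In every mouse Vdr was above Slc34a3, which encodes the second brush-border transporter (NaPi-IIc), at means of 29.8 TPM in males and 38.6 TPM in females, and the ranges of Vdr and Slc34a3 did not overlap in either sex. Slc20a2 and Slc20a1 encode the widely expressed transporters PiT-2 and PiT-1, which are not members of the Slc34 family. Slc20a2 averaged 26.3 and 24.4 TPM and Slc20a1 averaged 11.4 and 9.25 TPM, in males and females. Fgfr1 averaged 18.9 and 21.1 TPM, Cyp24a1 16.3 and 16.4 TPM, and Cyp27b1 3.97 and 6.35 TPM, the lowest level of the 10 in both sexes. The order of neighbours below Vdr was loose. Slc34a3 exceeded Slc20a2 in 17 of 24 males, although in all 21 females, and Cyp24a1 exceeded Slc20a1 in 13 of 24 males and 14 of 21 females, so that these last 2 did not differ beyond their spread.

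**Figure D1:**
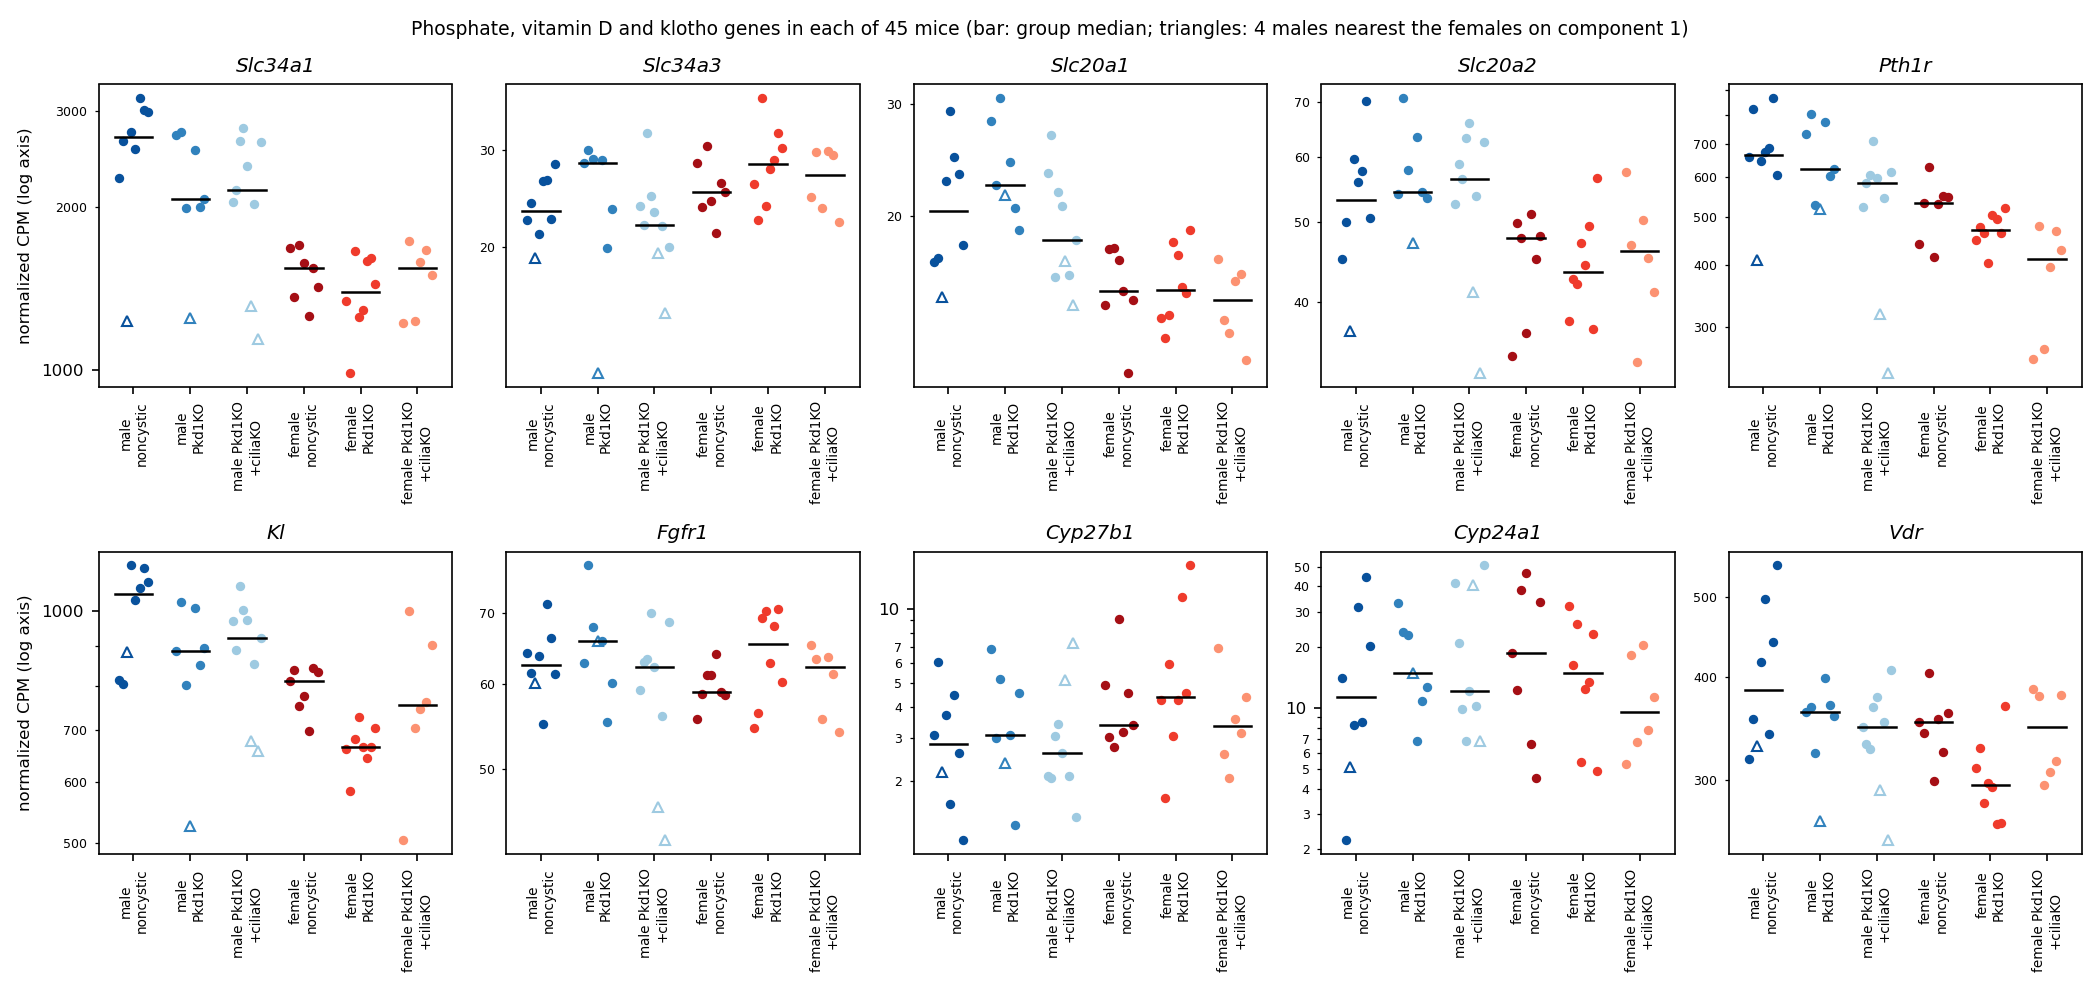
Normalized CPM (log axis) of the 10 genes in each of 45 mice, by sex and genotype, with a bar at each group's median and triangles for the 4 males nearest to the females on the first principal component. Slc34a1 ranged from 986 to 1731 CPM in females and from 1992 to 3171 CPM in the other 20 males, with the 4 triangles between 1137 and 1312 CPM, and Cyp24a1 ran from 2.22 to 50.7 CPM across all mice.

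More of these genes were called between the sexes than between genotypes, and so were more of all genes. Of the 10, 4 were called between noncystic males and females, all higher in males. Of all genes tested there, 27.3% were called in either direction, with 2458 of 16131 called higher in males. The 4 were Slc34a1, Slc20a1, Pth1r and Kl. In Pkd1KO mice 5 were higher in males, the same 4 and Slc20a2. Here 27.1% of all genes were called in either direction, with 2245 of 16131 called higher in males. In Pkd1KO+ciliaKO mice 0 of 10 passed the edgeR quasi-likelihood test, where 14.6% of all genes were called, while 3 had an unadjusted p under 0.05. DESeq2 called 2 of the 10, Slc34a1 and Slc20a1, beside 19.6% of all genes. The median log2 fold change of the 10 (male minus female) was 0.25, 0.28 and 0.21 in the 3 genotypes, beside medians between -0.01 and 0.01 over all genes tested. Whether the 10 differ from all genes as a set was not tested.

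Markers of cell types also differed between the sexes. In noncystic males 2 of 8 proximal tubule markers were higher (Slc22a6 and Hnf4a), while 2 of 3 markers of connecting tubule and principal cells (Scnn1g and Hsd11b2) and 3 of 4 markers of tubule injury (Havcr1, Lcn2 and Vcam1) were lower. In Pkd1KO males both thick ascending limb markers (Umod and Slc12a1), 1 of 3 of the distal convoluted tubule (Trpm6), 2 of 3 of connecting tubule and principal cells (Scnn1g and Hsd11b2) and 2 of 3 of intercalated cells (Atp6v1b1 and Slc26a4) were lower, and of the 8 proximal tubule markers 1 was higher and 1 lower. In Pkd1KO+ciliaKO males 2 of 8 proximal tubule markers were higher and 3 lower. Umod, Scnn1g, Slc26a4, the endothelial marker Emcn and the injury marker Havcr1 were lower there. The summed proximal tubule markers had medians of 9318 CPM in males and 8079 CPM in females among noncystic mice. They had 7282 and 8262 CPM among Pkd1KO mice and 6539 and 7128 CPM among Pkd1KO+ciliaKO mice. The part of these shifts in the sex differences of the 10 genes was not tested.

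Slc34a1 in noncystic males had a lowest, median and highest level of 1228, 2694 and 3171 CPM. The noncystic females lay at 1256, 1544 and 1701 CPM. All but 1 of the 8 males were above every female, and the remaining male, replicate 3, was below every female. The log2 fold change was 0.78 ± 0.16 (SE), or 1.72-fold, with an adjusted p of 0.00121 in edgeR's quasi-likelihood test.

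In Pkd1KO mice Slc34a1 lay at 1246, 2066 and 2746 CPM in males and at 986, 1389 and 1659 CPM in females. Here 6 of 7 males exceeded every female, and the exception was replicate 4. The difference was 0.64 ± 0.16 on the log2 scale (edgeR adjusted p = 0.00594). In Pkd1KO+ciliaKO mice the levels were 1137, 2148 and 2794 CPM in males and 1219, 1539 and 1731 CPM in females, with 7 of 9 males above every female, a difference of 0.50 ± 0.18 and an edgeR adjusted p of 0.0659.

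The 4 males nearest to the females on the first component were the 4 lowest males for Slc34a1, at 1137 to 1312 CPM, and all 4 lay inside the female range of 986 to 1731 CPM. None of the other 20 males did, since all 20 lay above it, from 1992 to 3171 CPM. The same 4 males were also the lowest 4 for Pth1r, at 242 to 519 CPM against 523 or more in the other 20, and for Slc34a3. Since Slc34a1 is 1 of the genes from which the component was computed, this is a description. Beside it, the summed level of 4 proximal tubule genes that are high in males (Slco1a1, Kap, Slc7a13 and Cyp2e1) was 3062 to 14570 CPM in the 4 males, 12140 to 32467 CPM in the other 20 and 2481 to 13158 CPM in females. Other marker sums were shifted in part, with ranges that overlapped those of the other 20 males. In the 4 males the 8 proximal tubule markers summed to 4547 to 7260 CPM, against 5749 to 9963 CPM in the other 20 males. Podocyte markers summed to 51.1 to 105 against 25.6 to 73.9 CPM, and endothelial markers to 77.4 to 241 against 36.1 to 112 CPM. Macrophage markers, at 43.5 to 193 against 51.5 to 119 CPM, reached both lower and higher. Thick ascending limb markers, at 1861 to 3660 against 1631 to 4083 CPM, and injury markers, at 40.6 to 125 against 13.8 to 161 CPM, lay within the range of the others. For Cyp27b1, at 2.18 to 7.24 CPM, and Cyp24a1, at 5.12 to 40.7 CPM, the 4 males lay among the others. The part that these marker levels play in the levels of the phosphate genes was not tested.

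Without these 4 males and the 2 females whose Kif3a went against the label, the sex difference of Slc34a1 was 0.84 ± 0.09 in noncystic, 0.75 ± 0.12 in Pkd1KO and 0.66 ± 0.12 in Pkd1KO+ciliaKO mice on the log2 scale. The 4 males were picked by their place on the component that separates the sexes, so leaving them out favours a larger difference, and these values are a description that supports no call.

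**Figure D2:**
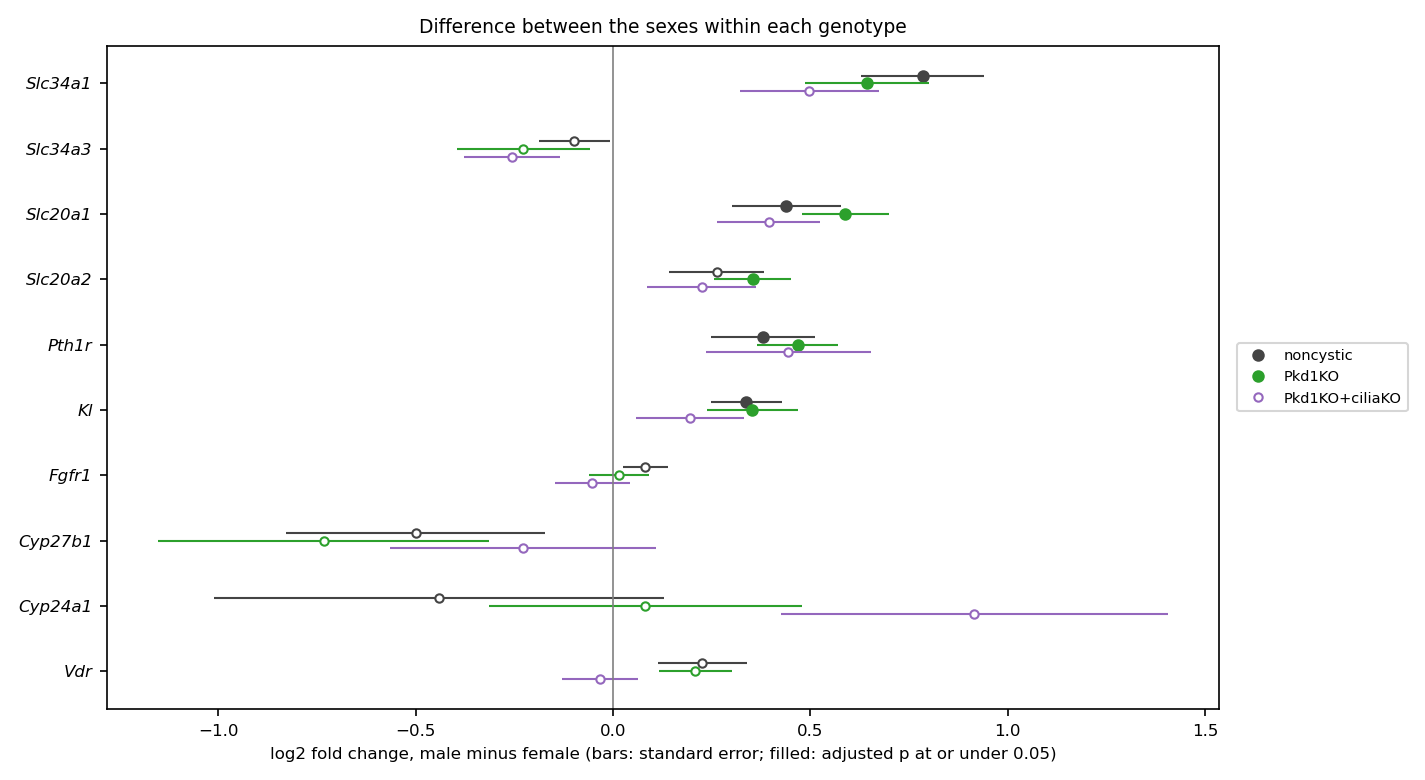
Log2 fold change, male minus female, of each gene within each genotype, with bars of 1 standard error and filled points where the adjusted p was at or under 0.05. Slc34a1 lies at 0.78, 0.64 and 0.50 in noncystic, Pkd1KO and Pkd1KO+ciliaKO mice, while Slc34a3 lies at -0.10, -0.23 and -0.26 with no filled point.

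Slc34a3, whose product works beside that of Slc34a1, gave no call between the sexes. Noncystic males lay at 19.1, 23.3 and 28.2 CPM (lowest, median and highest) and noncystic females at 21.3, 25.1 and 30.4 CPM, and the groups overlapped over most of their range. The log2 fold change was -0.10 ± 0.09 in noncystic, -0.23 ± 0.17 in Pkd1KO and -0.26 ± 0.12 in Pkd1KO+ciliaKO mice, with edgeR adjusted p of 0.46, 0.343 and 0.169. The only change of call among the alternatives was without male Pkd1KO+ciliaKO replicate 3, at -0.33 and an adjusted p of 0.0478. Whether the sex difference of Slc34a1 differs from that of Slc34a3 was not tested.

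Slc20a1 was low and higher in males. Pkd1KO males lay at 18.97, 22.4 and 30.6 CPM and Pkd1KO females at 12.9, 15.3 and 18.99 CPM, and 6 of 7 males were above every female. In log2 terms males were higher by 0.59 ± 0.11 (edgeR adjusted p = 0.000848). In noncystic mice it was 0.44 ± 0.14 (adjusted p = 0.0259), with males at 14.9, 20.3 and 29.2 CPM and females at 11.3, 15.3 and 17.8 CPM, and in Pkd1KO+ciliaKO mice 0.39 ± 0.13 (adjusted p = 0.0507).

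Slc20a2 was higher in Pkd1KO males, at 47.2, 54.5 and 70.7 CPM, than in Pkd1KO females, at 37.1, 43.5 and 56.6 CPM. The difference of 0.35 ± 0.10 on the log2 scale passed the test (edgeR adjusted p = 0.0128), although only 3 of 7 males were above every female. In noncystic and Pkd1KO+ciliaKO mice the values were 0.26 ± 0.12 and 0.22 ± 0.14, with adjusted p of 0.118 and 0.293.

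Pth1r, the receptor through which parathyroid hormone acts on the tubule, was higher in Pkd1KO males by 0.47 ± 0.10 on the log2 scale (edgeR adjusted p = 0.00287). Males lay at 519, 623 and 804 CPM and females at 402, 471 and 520 CPM, so that the lowest male, replicate 4, was just under the highest female. In noncystic mice the difference was 0.38 ± 0.13 (adjusted p = 0.0404), with males at 409, 666 and 866 CPM and females at 414, 534 and 628 CPM. Pkd1KO+ciliaKO mice had the widest spread, from 242 to 710 CPM in males and from 258 to 478 CPM in females, and gave 0.44 ± 0.21 (adjusted p = 0.162).

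Kl encodes klotho, the co-receptor for FGF23, which is made in distal and to a lesser degree in proximal tubule cells. Noncystic males lay at 804, 1051 and 1144 CPM and noncystic females at 699, 810 and 843 CPM, and 6 of 8 males were above every female. The log2 fold change was 0.34 ± 0.09 (edgeR adjusted p = 0.00996). In Pkd1KO mice it was 0.35 ± 0.11 (adjusted p = 0.0308), with males at 527, 886 and 1026 CPM and females at 585, 667 and 728 CPM, the male below all females again being replicate 4. In Pkd1KO+ciliaKO mice it was 0.20 ± 0.14 (adjusted p = 0.356).

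The replicate numbers in the labels run from 1 in each group, and adding them as a replicate block left 1 gene called in noncystic mice (Slc34a1, 0.71 ± 0.18, edgeR adjusted p = 0.0198), 4 in Pkd1KO mice (all but Kl) and 1 in Pkd1KO+ciliaKO mice (Slc20a1, 0.49 ± 0.10, adjusted p = 0.0188). With the block 20.9%, 22.9% and 11.6% of all genes were called in noncystic, Pkd1KO and Pkd1KO+ciliaKO mice. The labels state no pairing, although some same-numbered mice carry neighbouring mouse numbers, as do some mice with unlike replicate numbers. Shared litters cannot be read from the labels. In no comparison did the deviations of every same-numbered pair go together.

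Fgfr1, Vdr, Cyp27b1 and Cyp24a1 gave no call between the sexes in any genotype in the fit of all mice. Fgfr1, an FGF receptor that klotho turns into a receptor for FGF23, had log2 differences of 0.08 ± 0.06, 0.02 ± 0.08 and -0.05 ± 0.10 in noncystic, Pkd1KO and Pkd1KO+ciliaKO mice. Vdr had 0.23 ± 0.11, 0.21 ± 0.09 and -0.03 ± 0.10. Cyp27b1, at -0.50 ± 0.33, -0.73 ± 0.42 and -0.23 ± 0.34, and Cyp24a1, at -0.44 ± 0.57, 0.08 ± 0.40 and 0.92 ± 0.49, had the widest errors of the 10 genes.

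Since 4 genes were each called higher in males among noncystic mice, the promoters were read for shared letters. Windows of 300 bases, from 250 before to 50 after an annotated start, are given by RefSeq on GRCm38.p6 for 7 of the 10 genes, in 10 windows, and Slc20a2, Fgfr1 and Cyp24a1 have no entry. The windows were searched on both strands for 12 motifs, picked after the sex difference had been seen. AGAACA, a hexamer bound by the androgen and glucocorticoid receptors, was in a window of Slc34a1, Slc20a1, Pth1r and Kl and in none of Slc34a3, Cyp27b1 or Vdr, and 21.3% of the 27025 genes in the table hold it in at least 1 window (18.97% of all 32851 windows). Slc20a1 has it in 1 of 2 windows and Pth1r in 1 of 3, while each other gene has 1 window. The Slc20a1 match is in the window of an inner start, and the window at the start of the gene has none. The motifs were picked after the calls and the genes have unlike numbers of windows. This split therefore cannot show a difference between called and uncalled genes. The whole palindrome, AGAACA followed after 3 bases by TGTTCT, was in none of the 10 windows and in 0.00913% of all. A match describes letters and is not a site, and no test was made of it. The window that holds it is shown for each of these 4 genes, 5′ to 3′ on the gene's strand, with AGAACA, or TGTTCT where it lies on the other strand, in capitals.
Slc34a1, chr13:55399398-55399697, plus strand, match 228 bases before the start: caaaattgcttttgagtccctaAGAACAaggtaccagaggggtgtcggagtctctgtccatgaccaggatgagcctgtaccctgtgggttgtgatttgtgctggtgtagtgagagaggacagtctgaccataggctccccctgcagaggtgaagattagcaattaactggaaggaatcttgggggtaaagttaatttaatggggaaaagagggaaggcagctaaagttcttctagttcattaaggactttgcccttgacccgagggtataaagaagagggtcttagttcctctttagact
Slc20a1, chr2:129206846-129207145, plus strand, match 204 bases before the start: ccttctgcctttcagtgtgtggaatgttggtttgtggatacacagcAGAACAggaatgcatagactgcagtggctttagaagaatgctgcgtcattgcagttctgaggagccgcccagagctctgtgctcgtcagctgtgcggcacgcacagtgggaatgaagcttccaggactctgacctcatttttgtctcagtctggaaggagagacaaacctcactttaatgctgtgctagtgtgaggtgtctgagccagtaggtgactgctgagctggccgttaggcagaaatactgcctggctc
Pth1r, chr9:110747096-110747395, minus strand, match 65 bases before the start: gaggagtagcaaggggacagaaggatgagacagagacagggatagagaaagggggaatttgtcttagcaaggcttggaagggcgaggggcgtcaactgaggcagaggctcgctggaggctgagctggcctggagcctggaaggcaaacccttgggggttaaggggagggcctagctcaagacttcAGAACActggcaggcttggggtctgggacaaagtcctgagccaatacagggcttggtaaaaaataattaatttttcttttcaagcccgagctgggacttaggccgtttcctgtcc
Kl, chr5:150952357-150952656, plus strand, match 111 bases before the start: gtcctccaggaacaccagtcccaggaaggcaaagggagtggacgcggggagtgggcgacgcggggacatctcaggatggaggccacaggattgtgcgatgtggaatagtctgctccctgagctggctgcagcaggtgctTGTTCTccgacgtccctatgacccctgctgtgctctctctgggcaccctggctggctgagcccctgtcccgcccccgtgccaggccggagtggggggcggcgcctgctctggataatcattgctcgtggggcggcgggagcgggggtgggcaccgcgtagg

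The other motifs gave scattered matches. AGGTCA, a hexamer of many nuclear receptors including Vdr with its partner Rxr, was in Slc20a1 and Slc34a3 (16.3% of all windows), and AGTTCA, a variant of it, in Slc34a1 and Vdr (13.99%). GTTAAT, a hexamer of Hnf1 factors, was in Slc34a1 alone (7.10%). TATAAA was in Slc34a1 and Slc20a1 (13.6%) and GGGCGG, bound by Sp1, in Kl, Pth1r, Slc20a1 and Vdr (35.7%). GGTTCA (10.4%), TGACGTCA (1.79%), CAAAGTCCA (0.475%), AGGTCA repeated after 3 bases (0.00609%) and GTTAAT followed after 1 base by ATTAAC (0.00913%) matched none of the 10 windows. Each of the 3 spaced patterns contains a shorter motif of the search and overlaps with it.

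The next question was whether these genes change when Pkd1 is lost, and whether they do so only with cilia present. Across 6 comparisons of genotypes, 1 call was made among the 10 genes, a lower level of Kl in female Pkd1KO mice than in female noncystic mice. Female noncystic mice lay at 699, 810 and 843 CPM and female Pkd1KO mice at 585, 667 and 728 CPM. The lowest female noncystic mouse was replicate 5, the library whose Kif3a went against its label, and 6 of 8 Pkd1KO mice were below all 7 noncystic mice. The log2 fold change was -0.25 ± 0.06 (edgeR adjusted p = 0.0244), a level 0.839 times that of noncystic females. This is 1 of 10 genes, where 3.34% of all genes tested were called.

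The Kl call was close to the threshold. Its direction was kept in all 23 alternatives, with log2 fold changes from -0.28 to -0.22, and it was called in 12 of them. DESeq2 gave an adjusted p of 0.000697, and without female noncystic replicate 5 the change was -0.28 with an edgeR adjusted p of 0.0121. The adjusted p was 0.104 with the replicate block and 0.0636 in limma on log2(TPM + 1). In males Kl in Pkd1KO against noncystic mice was -0.22 ± 0.13 (adjusted p = 0.347), and 7 of 7 Pkd1KO males were below the noncystic median of 1051 CPM. The difference between the sexes in this change did not pass its own test, as given below for all 10 genes.

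Against Pkd1KO+ciliaKO females, Kl in Pkd1KO females was -0.22 ± 0.11 (edgeR adjusted p = 0.219). Pkd1KO+ciliaKO females were spread from 505 to 998 CPM, with replicate 1 lowest, and without that mouse the change was -0.32 with an adjusted p of 0.0248. Without the library labelled Pkd1KO+ciliaKO replicate 6 the adjusted p was 0.383, and the 2 genotypes overlapped. The summed level of 3 distal convoluted tubule markers (Slc12a3, Pvalb and Trpm6) had medians of 476 CPM in noncystic and 432 CPM in Pkd1KO females, and none of the 3 was called between them. Of 6 genes of distal calcium transport, 2 (Trpv5 and Slc8a1) were called lower in Pkd1KO than in noncystic females. An unadjusted edgeR p under 0.05, in either direction, was reached by 5 of the 6. The part of these distal genes in the lower Kl was not tested.

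Vdr moved in the same direction as Kl without passing the test. Female Pkd1KO mice lay at 265, 296 and 369 CPM and female noncystic mice at 299, 353 and 405 CPM, and 5 of 8 Pkd1KO mice were below every noncystic mouse. Its change was -0.22 ± 0.08 on the log2 scale (edgeR adjusted p = 0.139), and without Pkd1KO replicate 8, the highest of its group, it was -0.27 with an adjusted p of 0.0472. In males the values were -0.22 ± 0.12 for Pkd1KO (adjusted p = 0.319) and -0.25 ± 0.12 for Pkd1KO+ciliaKO (adjusted p = 0.188) against noncystic mice.

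In the other 5 comparisons of genotypes 0 of the 10 genes were called by edgeR. The share of all genes called was 6.3% for Pkd1KO against noncystic, 3.77% for Pkd1KO against Pkd1KO+ciliaKO and 8.89% for Pkd1KO+ciliaKO against noncystic males. In females it was 11.7% for Pkd1KO against Pkd1KO+ciliaKO and 2.54% for Pkd1KO+ciliaKO against noncystic mice. An unadjusted p under 0.05 was reached by 0, 1, 1, 2 and 1 of the 10 genes, in that order. DESeq2 called 0, 0, 0, 0 and 1, the last being Pth1r in Pkd1KO+ciliaKO against noncystic females. Its share of all genes was 10.3%, 7.72%, 13.5%, 15.7% and 8.01%, in the same order. In Pkd1KO+ciliaKO against noncystic females the deleted Kif3a itself did not pass, at -1.16 ± 0.31 (edgeR adjusted p = 0.0605). Without the 2 females whose Kif3a went against the label, edgeR called 5.80% of all genes there and 0 of the 10.

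Pth1r in Pkd1KO+ciliaKO against noncystic mice stopped short of the threshold in both sexes. Female Pkd1KO+ciliaKO mice lay at 258, 411 and 478 CPM and female noncystic mice at 414, 534 and 628 CPM, and all 6 of the former were below the noncystic median. The log2 fold change was -0.44 ± 0.15 (edgeR adjusted p = 0.107, DESeq2 adjusted p = 0.0484). In males it was -0.35 ± 0.18 (edgeR adjusted p = 0.258), where 8 of 9 Pkd1KO+ciliaKO mice were below the noncystic median. The 2 lowest were replicates 6 and 8, which fell among the females on the first component. The summed level of the 8 proximal tubule markers had medians of 9318, 7282 and 6539 CPM in noncystic, Pkd1KO and Pkd1KO+ciliaKO males and of 8079, 8262 and 7128 CPM in females, and its part in these differences was not tested. Without the library labelled female Pkd1KO+ciliaKO replicate 6 and that labelled female noncystic replicate 5, Pth1r in females was at -0.47 (edgeR adjusted p = 0.116).

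Slc34a1 differed between genotypes by less than its spread. Its log2 fold change was -0.24 ± 0.19 for Pkd1KO and -0.27 ± 0.19 for Pkd1KO+ciliaKO against noncystic males, and -0.11 ± 0.10 and -0.01 ± 0.10 in females. The edgeR adjusted p of these 4 values was 0.504, 0.398, 0.677 and 0.961. Slc34a3, Slc20a1, Slc20a2 and Fgfr1 lay between -0.10 and 0.28 in all 6 comparisons, the highest value being Slc20a1 in Pkd1KO against Pkd1KO+ciliaKO males, at 0.28 ± 0.13 (adjusted p = 0.234). The comparisons within a sex share mice, so their values are not independent of each other.

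**Figure D3:**
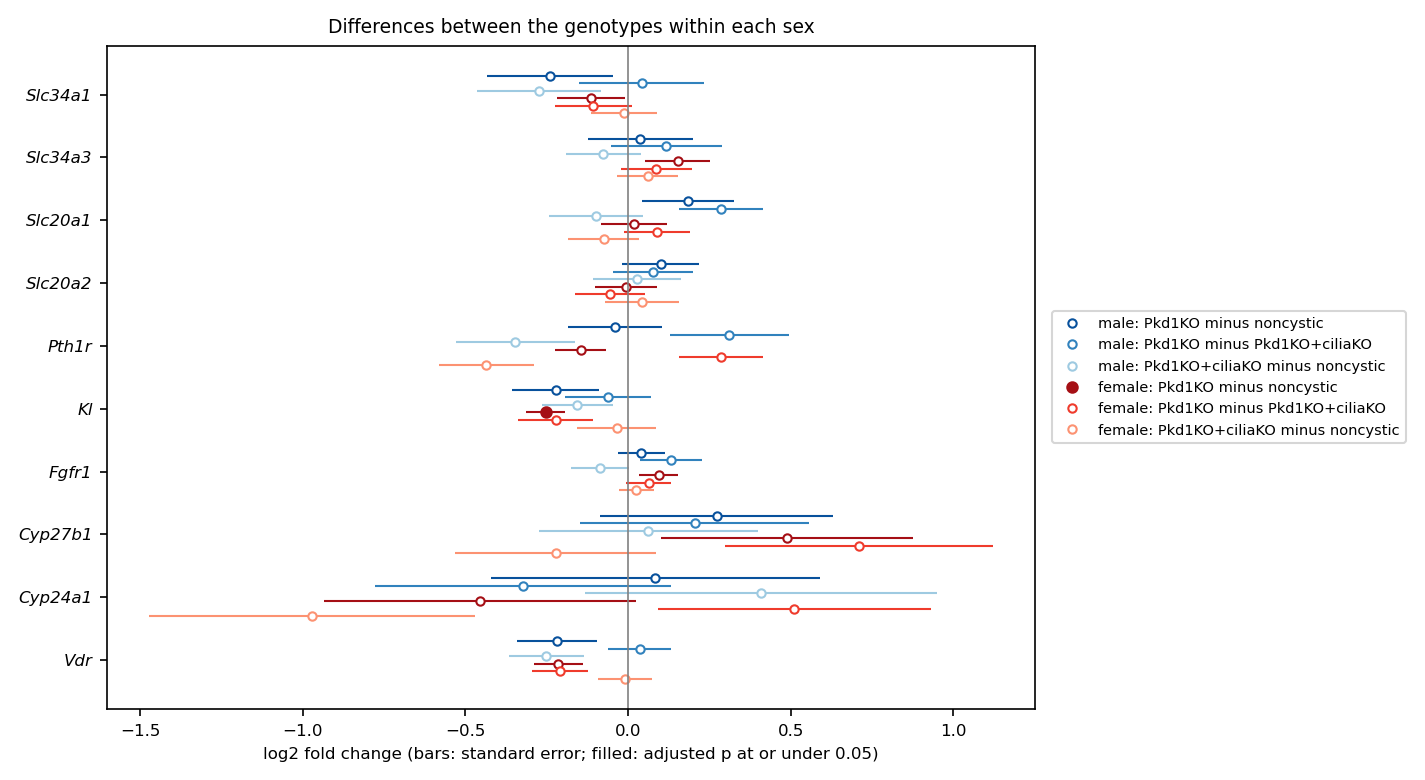
Log2 fold change of each gene between genotypes within each sex, with bars of 1 standard error and filled points where the adjusted p was at or under 0.05. The single filled point is Kl in female Pkd1KO against noncystic mice at -0.25, and the widest bars belong to Cyp24a1 and Cyp27b1.

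Whether a change between genotypes differed between the sexes was asked in 1 fit of all 45 mice. None of the 10 genes was called for Pkd1KO against noncystic, Pkd1KO against Pkd1KO+ciliaKO or Pkd1KO+ciliaKO against noncystic mice by edgeR or DESeq2, and 0 had an unadjusted p under 0.05. The share of all genes called was 0.0124%, 0.223% and 0.031%, and the smallest edgeR adjusted p among the 10 genes was 0.894, 0.700 and 0.957.

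The 2 vitamin D enzymes stood out by how much they differed between mice of the same sex and genotype. Cyp24a1, the 24-hydroxylase, ran in noncystic males from 2.22 to 44.2 CPM with a median of 11.3 CPM. In noncystic females it ran from 4.48 to 46.7 CPM with a median of 18.6 CPM. The other groups spanned 6.91 to 33.01, 6.86 to 50.7, 4.90 to 32.1 and 5.28 to 20.4 CPM, in male Pkd1KO, male Pkd1KO+ciliaKO, female Pkd1KO and female Pkd1KO+ciliaKO mice, so every group overlapped with every other.

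Over all mice the highest level of Cyp24a1 was 22.8 times the lowest in males and 10.4 times in females. The standard deviation between mice of a group, pooled over the genotypes of a sex, was 1.15 in males and 1.06 in females on the log2(CPM + 0.1) scale, beside a median of 0.24 and 0.18 over all genes. It exceeded that of 99.7% of the 15828 genes in either sex, and of 99.7% of the genes within 2-fold of its level. At 2.22 CPM the lowest mouse was above the floor of 3 counts, which was at most 0.0371 CPM.

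Cyp27b1, the 1-alpha-hydroxylase, was the lowest of the 10 genes and the second most variable. It ran from 1.15 to 7.24 CPM in males and from 1.71 to 14.98 CPM in females, and its pooled standard deviation was 0.74 and 0.76, above that of 97.4% and 98.8% of genes. Female Pkd1KO mice had the widest range, from 1.71 to 14.98 CPM with a median of 4.40 CPM. The widest differences between genotypes came from these genes and did not pass the test. They were -0.97 ± 0.50 for Cyp24a1 in Pkd1KO+ciliaKO against noncystic females (edgeR adjusted p = 0.280) and 0.71 ± 0.41 for Cyp27b1 in Pkd1KO against Pkd1KO+ciliaKO females (adjusted p = 0.280).

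Fgfr1 was at the other end. Its pooled standard deviation was 0.18 in males and 0.12 in females, with 34.2% and 18.1% of all genes below it, and its highest level was 1.81 and 1.30 times its lowest. Vdr, the receptor for the hormone that Cyp27b1 makes and Cyp24a1 breaks down, had 0.23 and 0.16. Slc34a1 had 0.43 in males, above 82.3% of genes, and 0.21 in females, above 57.0%. The 4 males that scored lowest on the first component are among the 24 males.

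**Figure D4:**
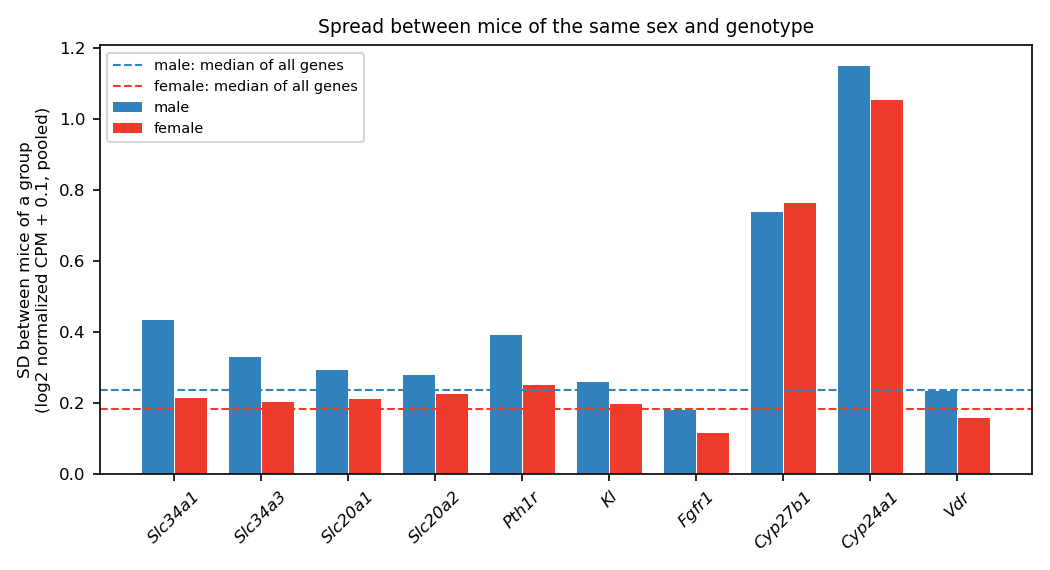
Standard deviation between mice of the same sex and genotype, pooled within each sex, on the log2(CPM + 0.1) scale, with dashed lines at the median over 15828 genes (0.24 in males and 0.18 in females). Cyp24a1 (1.15 and 1.06) and Cyp27b1 (0.74 and 0.76) stand above the other 8 genes, and Fgfr1 (0.18 and 0.12) is the lowest.

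Relations between the 10 genes across mice were computed within each sex on values centred on the group means, for 45 pairs in 20 males and 21 females, 90 in all. The 4 males that scored lowest on the first component were left out for their place on it. For Slc34a1 a gap from 1312 to 1992 CPM also lay between them and the other 20. A single relation passed Benjamini-Hochberg adjustment over the 90, that of Slc34a1 with Slc34a3 in females. Pearson's r was 0.84 (p = 2e-05, adjusted p = 0.0018) and Spearman's rho 0.86 (p = 3e-05, adjusted p = 0.0027), from permutation tests with 100000 draws within groups, two-sided. It held at r = 0.84 without the 2 females farthest from the median of Slc34a1, and at r = 0.89 in 19 females without the 2 against their Kif3a label. In the 20 males r was 0.47 (permutation p = 0.0564, adjusted p = 0.356) and rho 0.46 (permutation p = 0.0665, adjusted p = 0.399), with r = 0.42 without the 2 farthest. The results in males depended on which males were used. Over all 24 males, with adjustment over the 45 pairs alone, 18 passed on both measures. Among them was Slc34a1 with Slc34a3 at r = 0.75 (permutation p = 2e-05, adjusted p = 0.00018) and rho = 0.67 (permutation p = 0.00084, adjusted p = 0.00378). None passed over the 20, with adjustment over the 90. The 4 lie below all other males for Slc34a1, so leaving them out narrows its range and favours lower correlations. The unlike adjustments and this choice mean that the counts cannot show what the relations in males rest on. The fit of all 24 males was added after the data were seen, and the 4 males left out were also picked from these data. The difference between the sexes was not tested, and the values of 1 mouse share a library and its makeup of tubule segments.

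**Figure D5:**
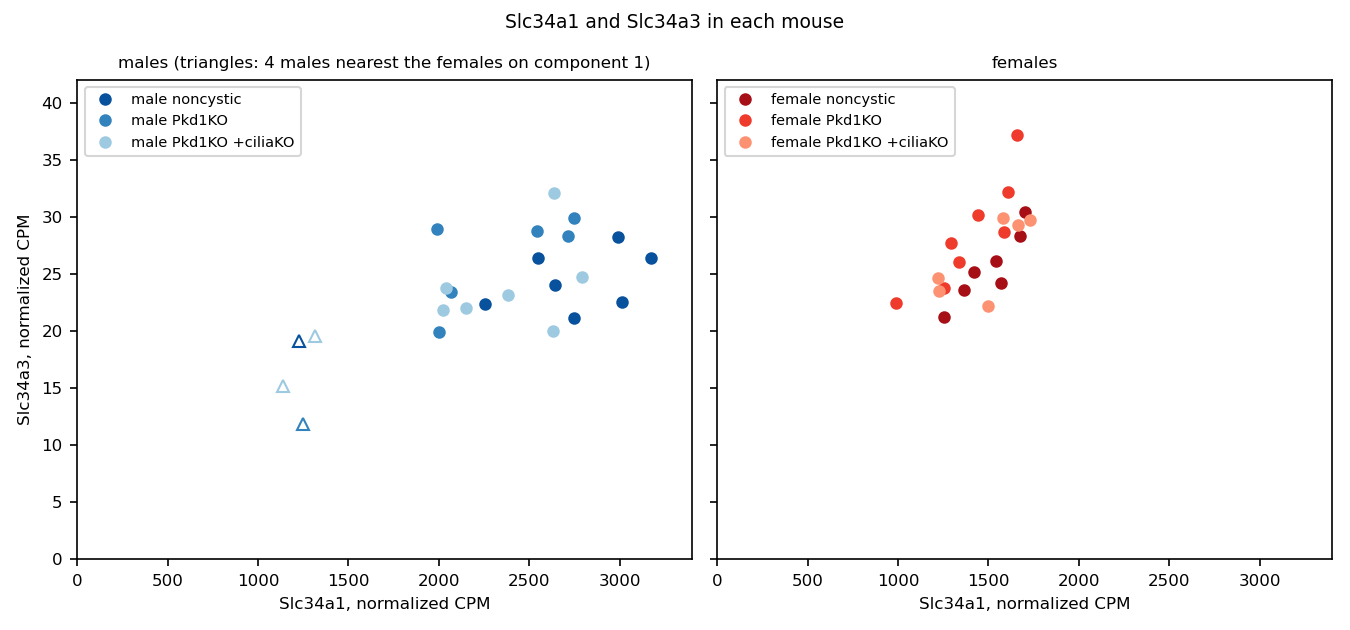
Slc34a3 against Slc34a1 in normalized CPM in each mouse, males on the left and females on the right. Triangles mark the 4 males that scored lowest on the first component. In females the 2 genes lie along a line (r = 0.84 on group-centred values), and the triangles lie at 1137 to 1312 CPM of Slc34a1 and 11.9 to 19.5 CPM of Slc34a3, under all other males for both.

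The 2 vitamin D enzymes, which make and remove the same hormone, gave no relation across mice that passed the adjustment. Cyp27b1 and Cyp24a1 had r = -0.41 (permutation p = 0.0988, adjusted p = 0.356) and rho = -0.45 (permutation p = 0.0535, adjusted p = 0.344) in 20 males, and r = -0.32 (permutation p = 0.148, adjusted p = 0.214) in all 24, where leaving out the 2 farthest gave r = -0.08. In 21 females they had r = -0.10 (permutation p = 0.677, adjusted p = 0.858) and rho = -0.03 (permutation p = 0.917, adjusted p = 0.960).

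The genes most like each member were sought over 15793 protein-coding genes by the smaller of the Spearman rho over 24 males and over 21 females, as a description in which all points share library, depth and the 4 males apart. Slc34a1 was most like Slc26a1, a sulfate transporter (0.90), Fam151a (0.79) and Habp2 (0.74). Slc34a3 was most like Habp2 (0.85), Slc12a7 (0.70) and Pam (0.67). Over the 20 males without the 4, rho of Slc34a1 with Slc26a1 was 0.84 and of Slc34a3 with Habp2 0.74.

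Pth1r had Isoc2b (0.84), Cdk10 (0.83) and Cyb561d2 (0.82) nearest to it, and Kl had Chrna4 (0.77), Fam163a (0.77) and Dhrs3 (0.74). Vdr had Ethe1 (0.77), Rpl3l (0.74) and Asb13 (0.70), and Fgfr1 had Tpst2 (0.73), Plod3 (0.70) and Pcnx3 (0.69). Slc20a2 was most like Ano10 (0.77), Abhd2 (0.73) and Lpcat3 (0.71), and Slc20a1 was most like Ctsz (0.65), Cdhr2 (0.65) and Atp2a2 (0.64).

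The vitamin D enzymes had weaker likenesses. Cyp27b1 was most like Cry2 (0.57), Baiap2 (0.55) and Cry1 (0.54), of which Cry1 and Cry2 encode the cryptochromes of the circadian clock. Over the 20 males rho with Cry2 was 0.78 and with Cry1 0.62. Cyp24a1 was most like Myoc (0.50), Psmg3 (0.41 in females and 0.38 in males) and Smpd3 (0.37), so no gene followed it closely in both sexes.

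Other genes of phosphate, klotho, parathyroid hormone, vitamin D and calcium handling were read from a list of 37, of which 34 were tested in each comparison. Fgf23, Pth2r and Pthlh, which encode the bone hormone and a receptor and a ligand of parathyroid hormone signalling, were too low to test. In males, Pkd1KO against noncystic mice gave 1 higher and 1 lower gene of the 34, where 6.3% of all genes were called. Slc34a2, the third member of the Slc34 family, lay at 3.74, 5.196 and 20.5 CPM in Pkd1KO and at 1.69, 2.41 and 4.61 CPM in noncystic males, a rise of 1.78 ± 0.37 on the log2 scale (edgeR adjusted p = 0.0083). Cubn, a receptor for the uptake of filtered proteins including the carrier of vitamin D, fell by 0.46 on the log2 scale (SE 0.13, adjusted p = 0.0475), a call made in 10 of 23 alternatives with an adjusted p of up to 0.0973.

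Pkd1KO+ciliaKO males showed the same 2 changes against noncystic males, with Slc34a2 higher by 1.26 ± 0.24 (edgeR adjusted p = 0.00334) and Cubn at -0.50 ± 0.10 (adjusted p = 0.00287). Lrp2, which works with Cubn, was at -0.49 ± 0.12 (adjusted p = 0.0153) and Pdzk1, a scaffold that binds Slc34 transporters, at -0.27 ± 0.07 (adjusted p = 0.0183), so 1 of 34 rose and 3 fell, where 8.89% of all genes were called. Cubn and Lrp2 are also among the 8 proximal tubule markers, whose summed level was lower in these groups, as given above. The 2 comparisons share the noncystic males. Between Pkd1KO and Pkd1KO+ciliaKO males 0 of 34 were called by edgeR, beside 3.77% of all genes, and 8 had an unadjusted p under 0.05. DESeq2 called 5 of the 34, beside 7.72% of all genes.

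In females, Pkd1KO against noncystic mice gave 1 higher gene and 2 lower ones of the 34, where 3.34% of all genes were called. Trpv5, the calcium channel of the distal tubule, lay at 20.1, 23.4 and 27.2 CPM in Pkd1KO and at 23.0, 32.2 and 46.2 CPM in noncystic females, a change of -0.55 ± 0.12 (edgeR adjusted p = 0.0185). Slc8a1, the sodium-calcium exchanger that moves calcium out of the same cells, was at -0.64 ± 0.16 (adjusted p = 0.0324), a call made in 10 of 23 alternatives. Galnt3, an enzyme that glycosylates FGF23, was higher by 0.28 ± 0.06 (adjusted p = 0.0158). With the replicate block 0 of the 34 were called here, beside 1.84% of all genes.

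Between Pkd1KO and Pkd1KO+ciliaKO females 6 of 34 were called, 5 higher in Pkd1KO and 1 lower, where 11.7% of all genes were called. Slc9a3r1, which encodes the scaffold Nherf1 that holds Slc34a1 protein at the brush border, was higher by 0.36 ± 0.07 (edgeR adjusted p = 0.00562), and Fgfr4, another FGF receptor, by 0.50 ± 0.10 (adjusted p = 0.00648). Galnt3 was higher by 0.26 ± 0.07 (adjusted p = 0.0274) and Fgfr2 was lower, at -0.35 ± 0.09 (adjusted p = 0.0174). Against noncystic females, Pkd1KO+ciliaKO females had 1 call of 34, beside 2.54% of all genes, Slc9a3r1 at -0.41 ± 0.06 (adjusted p = 0.0164), with levels of 213, 237 and 257 CPM beside 288, 312 and 351 CPM and no overlap.

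Between the sexes, 8 of 34 were higher and 6 lower in noncystic males, 6 and 8 in Pkd1KO males and 4 and 4 in Pkd1KO+ciliaKO males, where 27.3%, 27.1% and 14.6% of all genes were called. Gc, which encodes the vitamin D binding protein, lay at 10.2, 12.3 and 15.7 CPM in noncystic males and at 26.9, 31.7 and 43.7 CPM in noncystic females, with no overlap and a log2 difference of -1.45 ± 0.11 (edgeR adjusted p = 8.95e-08). Ank, which exports pyrophosphate, was lower in males of all 3 genotypes, at -0.70, -0.81 and -0.61. Cyp27a1, a mitochondrial sterol hydroxylase that can add the first hydroxyl group to vitamin D, was higher by 0.78 ± 0.13 in noncystic males (adjusted p = 0.000353) and by 0.66 ± 0.13 in Pkd1KO males (adjusted p = 0.00122). Fgfr4 was higher by 0.60 ± 0.09 in noncystic males (adjusted p = 8.94e-05) and by 0.61 ± 0.13 in Pkd1KO+ciliaKO males (adjusted p = 0.00525).

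The positions of the genes are given on GRCm38. Slc34a1 is at chr13:55398187-55415592, Pth1r at chr9:110722085-110747145, Kl at chr5:150952607-150993817 and Vdr at chr15:97854425-97910630. Chromosome 2 holds Slc34a3 (25228898-25234364), Slc20a1 (129198764-129211616) and Cyp24a1 (170482708-170497145), chromosome 8 holds Slc20a2 (22476788-22569612) and Fgfr1 (25513654-25575718), and Cyp27b1 is at chr10:127048250-127053006. Exons of Slc34a1 overlap with Pfn3, of Slc20a1 with Gm4430 and 9830144P21Rik, of Slc20a2 with Smim19, of Pth1r with Myl3, of Fgfr1 with Gm16159 and of Cyp24a1 with Pfdn4, each on the opposite strand. Whether the counting used strand is not given in the sources used here, so reads in those stretches cannot be assigned with certainty. Slc34a3, Kl, Cyp27b1 and Vdr have no such overlap.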

How the data were processed

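Ribosome-bound RNA of 45 mouse kidneys was sequenced as 150-bp paired reads. The authors trimmed reads with fastp 0.20.0, aligned them to GRCm38.p6 with STAR 2.7.9 and counted them per gene with featureCounts 2.0.0, and the counts were deposited as whole numbers per gene and mouse. The strand and multi-mapping options are not given in the sources used here. The deposited TPM values (scaled by transcript length) were computed by the authors for each sex separately, and list genes that reached 6 counts in 20% or more of the animals. No column was left without a sample.

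Counts were tested here with edgeR 4.0.16 (quasi-likelihood test, TMM scaling, Benjamini-Hochberg adjustment over all genes tested, threshold 0.05) in R 4.3.3, on the 2 groups of each comparison, and for the sex by genotype terms on all 45 mice. The edgeR script was tested on simulated data first. Alternatives were DESeq2 1.42.0, its size factors, no filter, other mice in the fit, limma 3.58.1 on log2(TPM + 1) and log2(TPM + 0.1), a replicate block, and leaving out mice. Normalized CPM are counts scaled by the TMM library size. Relations used Python 3.11.15 and scipy 1.17.1 on log2(CPM + 0.1).

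All 10 genes, the 37 genes of the wider list and the marker lists were chosen with earlier results of these data known. The 10 genes are named throughout. Of the 37, at most 4 called genes with the smallest p are named per comparison, and Kif3a and Pkd1 serve as checks of the labels. For likeness, the 3 protein-coding genes with the highest value of the smaller rho are named. Same-numbered mice of 2 groups did not deviate together (the correlation of their deviations lay between -0.327 and 0.487 over the comparisons, and in no comparison did every pair exceed 0.1), so the main fits have no block. Counts of 149 pairs of mice within groups all differed beyond sampling noise, so no library was counted as a repeat.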

Additional observations from a re-analysis of the deposited data

Results flagged for a closer look

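A mouse far from the others of its group was sought by Dixon's criterion in 60 sets of values, 10 genes in 6 groups, where chance gives about 1 in 20. It was met by 2. Slc34a1 in male noncystic replicate 3 was at 1228 CPM, with the nearest of the other 7 males at 2254 CPM and the highest at 3171 CPM. This mouse is 1 of the 4 males that scored lowest on the first principal component. Cyp27b1 in female noncystic replicate 4 was at 9.09 CPM, with the nearest of the other 6 females at 4.90 CPM and the lowest at 2.74 CPM.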

How the results depend on the processing

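The 10 called values of the phosphate, vitamin D and klotho genes kept their direction in all 212 alternatives and their call in 170 of them. Slc34a1 was called in 21 of 21 alternatives between the sexes in both noncystic and Pkd1KO mice. In female Pkd1KO against noncystic mice the count of called genes went from 1 to 0 with the replicate block, without a filter, with 3 genotypes in one fit, and in limma on log2(TPM + 1) and log2(TPM + 0.1), and lay between 0 and 2 when 1 mouse was left out. Kl lost its call there without noncystic replicates 2, 6 or 7 or Pkd1KO replicates 1, 2 or 7 (adjusted p 0.0539 to 0.0664). Female Pkd1KO against Pkd1KO+ciliaKO mice went from 0 to 1 in both limma fits (Vdr), with 0 to 1 when 1 mouse was left out, and female Pkd1KO+ciliaKO against noncystic mice from 0 to 1 with DESeq2 (Pth1r). The share of all genes went from 11.7% to 13.6% and 13.2% in the limma fits, and from 2.54% to 8.01% with DESeq2.

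Between the sexes, noncystic mice went from 4 called genes to 1 with the replicate block and 2 without a filter, with 2 to 5 when 1 mouse was left out. The share of all genes tested went from 27.3% to 20.9% and 11.3%, and lay between 23.1% and 35.2% when 1 mouse was left out. Pkd1KO mice kept 4 to 6 called genes when 1 mouse was left out, beside 23.7% to 29.6% of all genes. Pkd1KO+ciliaKO mice went from 0 to 2 with DESeq2, 1 with the replicate block, 1 with DESeq2 size factors, 3 with 6 groups in one fit and 4 without the 6 libraries named in the report, with 0 to 3 when 1 mouse was left out. Pth1r in noncystic mice lost its call without any 1 of 12 mice (adjusted p 0.0524 to 0.0840), Slc20a1 without male 5, 6 or 7 or female 6 or 7 (0.0503 to 0.0554), and Kl in Pkd1KO mice without male 1, 2, 5 or 7 or female 2 or 6 (0.0539 to 0.0763). In Pkd1KO+ciliaKO mice Slc34a1 was called without male 6 (0.56, adjusted p = 0.022) or male 8 (0.58, adjusted p = 0.00941), Pth1r without male 8 (0.54, adjusted p = 0.0307) and Slc20a1 without male 3, 6 or 8 or female 1 (0.0188 to 0.0445). Leaving out the 4 males, together or singly, removes the males that scored nearest to the females on the component that separates the sexes, so the added calls follow in part from how they were picked and support no sex difference. The cause of these changes was not tested. Of the wider list, Cubn in Pkd1KO against noncystic males and Slc8a1 in Pkd1KO against noncystic females were each called in 10 of 23 alternatives. Over all 24 males, an alternative added after seeing the data, Slc34a1 and Slc34a3 had r = 0.75 in place of 0.47. The lowest of the 10 genes, Cyp27b1, was above the floor of 3 counts in every mouse.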
